A study of Mus musculus with 6 samples.

Results

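The interleukin-6 family is described here through 9 genes, chosen by symbol from the deposited tables: the ligand genes Il6, Lif, Il11 and Clcf1, the receptor genes Il6st, Il6ra, Osmr and Lifr, and the feedback inhibitor Socs3. All 9 were found among the 27502 genes listed, each under 1 gene identifier. RNA came from vascular smooth muscle cells (VSMCs), the contractile cells of the vessel wall, grown in culture from mouse aorta. In 3 samples the cells were given small interfering RNA against Ezh2 (siEzh2), and 3 samples were the controls of that knockdown, all at 48 hours. The sources used here do not give what the control cells received or the strain, age and number of the mice. Nor do they say if each sample was its own culture, so p-values cover no more than the spread among these samples, and that spread may be technical. Ezh2 encodes the methyltransferase of Polycomb repressive complex 2, which marks silent chromatin.

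Cytokines of this family share gp130, the signalling chain encoded by Il6st. Interleukin-6 and interleukin-11 bind their own receptor chains (Il6ra and Il11ra1) and then gp130, while leukemia inhibitory factor pairs gp130 with the chain encoded by Lifr, and oncostatin M pairs it with the chain encoded by Osmr. The paired chains activate JAK kinases and the transcription factor STAT3, and STAT3 induces Socs3, whose product binds gp130 and shuts the signal down. In the vessel wall smooth muscle cells both secrete interleukin-6 and respond to cytokines of the family.

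Levels are in FPKM, a read number scaled to the length of the gene and the depth of the sample. Steps in the low values gave 16080005 to 18753124 reads per sample. The targeted gene Ezh2 was at 3.41, 3.59 and 3.88 FPKM in control samples 1 to 3 and at 1.20, 1.09 and 1.05 FPKM in siEzh2 samples 1 to 3, the order kept for every gene that follows. Genes were tested with limma on log2(FPKM + 1) where a group mean reached 1 FPKM, and they are said to have risen or fallen where the Benjamini-Hochberg adjusted p over all tested genes was under 0.05. Of 11869 tested genes, 5561 (46.9%) passed, 24.1% higher and 22.7% lower in siEzh2 samples. Among markers of the labelled cell type Acta2 (smooth muscle actin) was abundant at 519 to 711 FPKM, but Tagln, Cnn1 and Des did not exceed 0.352, 1.38 and 0.832 FPKM in any sample, and 5 of 6 tested smooth muscle markers were lower in siEzh2 samples. Antisense genes cover 67.9% of the exon bases of Tagln, so its level is uncertain. Gm23935 reached 14073 FPKM in siEzh2 sample 1, above every other gene and sample.

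Of the 9 family genes 8 were tested, Il11 only because its siEzh2 mean reached 1 FPKM. Il11, Lif and Socs3 rose, Il6st and Osmr fell, and Il6, Il6ra and Lifr did not pass. The share that passed in either direction was 62.5% of the tested members, beside 46.9% of all tested genes. That share counts Il11 and rests on 8 genes, and the gap between the shares was not tested. The median log2 difference was 0.01 over the tested members and 0.01 over all tested genes. In 5 of the 8 (62.5%) the groups of samples did not overlap, close to the 58.1% of all tested genes, so that count says nothing particular about the family.

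**Figure D1:**
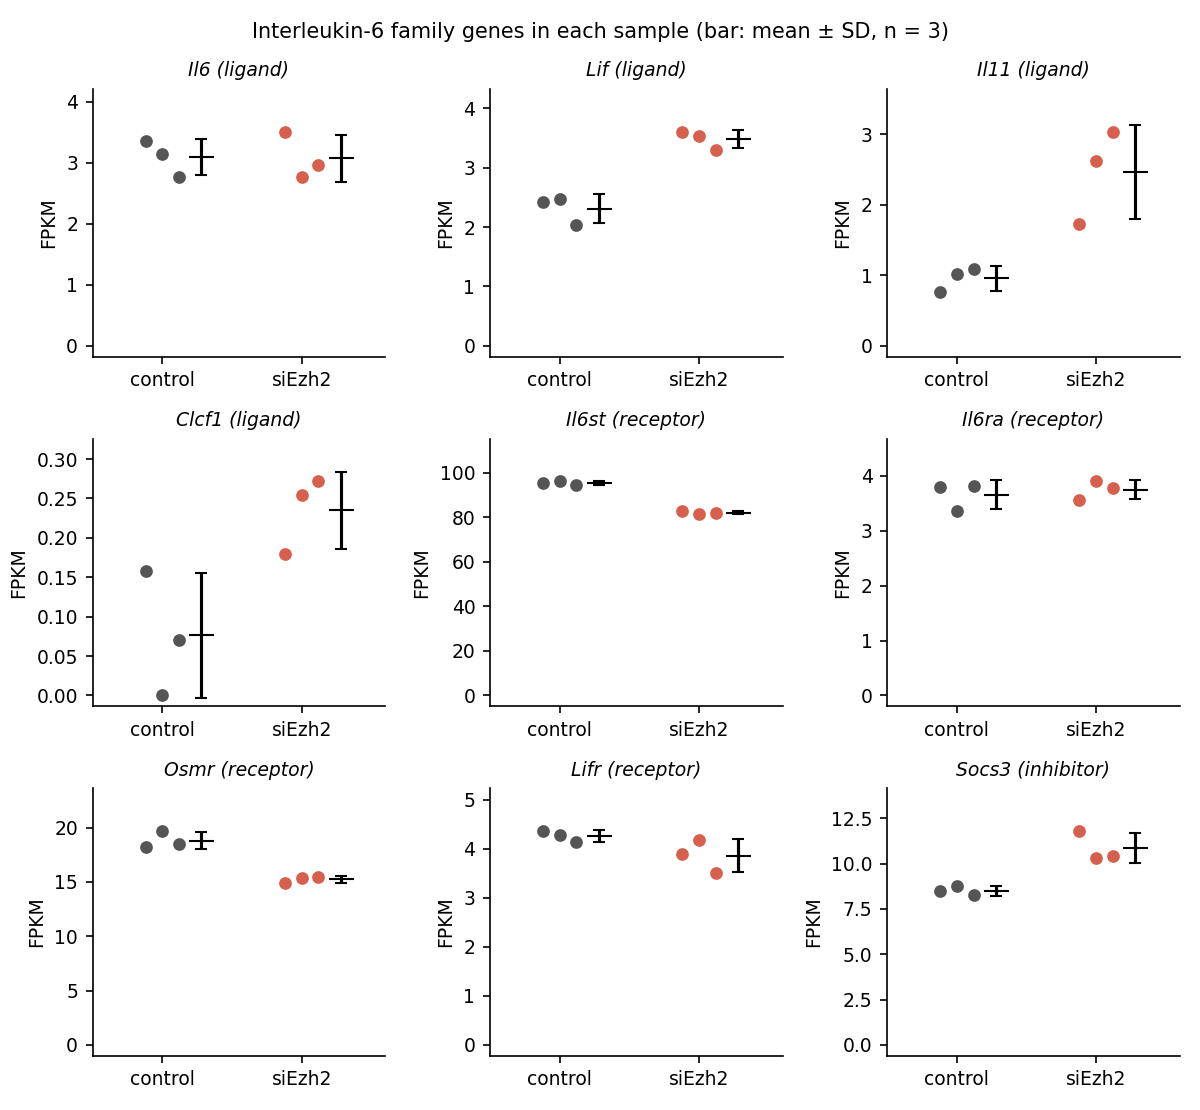
FPKM of the 9 family genes in the 3 control and 3 siEzh2 samples, 1 point per sample, with the mean and SD of each group beside the points (n = 3). The siEzh2 points lie above all control points for Lif, Il11, Clcf1 and Socs3, and below them for Il6st and Osmr, and the points of both groups overlap for Il6, Il6ra and Lifr.

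The upstream sequences of Il6, Lif, Il11 and Socs3 are shown because 3 of these genes rose together while Il6 did not pass the test. They are the bases before the RefSeq start site (build GRCm38.p6), 5′ to 3′ on the gene's strand, in lower case with motif matches in capitals. The RefSeq starts used for Il11 and Socs3 lie inside the gene limits given below. The stretches shown for both are thus downstream of the gene's annotated 5′ end. Bases inside an annotated exon were left out, which shortened the windows of Lif and Socs3. Of the windows of these genes only those with a motif match are shown. In the first 3 sequences the capitals TGAGTCA or TGACTCA mark a match to the AP-1 motif, in Il6 the capitals GGGATTTTCC mark a match to the kappaB motif of NF-kappaB, and in Socs3 the capitals mark a match to the STAT motif.
Il6, chr5:30012864-30013113, plus strand: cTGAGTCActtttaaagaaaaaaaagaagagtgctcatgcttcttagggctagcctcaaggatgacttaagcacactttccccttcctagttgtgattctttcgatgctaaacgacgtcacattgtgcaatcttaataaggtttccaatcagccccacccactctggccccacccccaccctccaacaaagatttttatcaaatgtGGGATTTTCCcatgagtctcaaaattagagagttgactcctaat
Lif, chr11:4257318-4257556, plus strand: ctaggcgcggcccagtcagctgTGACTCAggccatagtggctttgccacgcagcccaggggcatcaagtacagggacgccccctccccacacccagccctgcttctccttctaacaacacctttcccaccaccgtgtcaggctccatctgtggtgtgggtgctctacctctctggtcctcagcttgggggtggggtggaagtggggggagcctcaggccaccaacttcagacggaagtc
Il11, chr7:4778142-4778391, minus strand: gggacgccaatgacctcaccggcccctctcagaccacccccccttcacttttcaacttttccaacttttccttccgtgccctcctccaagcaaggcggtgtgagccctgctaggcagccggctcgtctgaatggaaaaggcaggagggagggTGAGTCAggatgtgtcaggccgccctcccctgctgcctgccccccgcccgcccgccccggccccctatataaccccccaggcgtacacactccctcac
Socs3, chr11:117969444-117969616, minus strand: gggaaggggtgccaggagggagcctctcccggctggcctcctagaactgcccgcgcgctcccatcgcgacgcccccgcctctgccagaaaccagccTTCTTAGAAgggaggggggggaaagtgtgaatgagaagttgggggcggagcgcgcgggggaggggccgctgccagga

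Entries were found for 8 of the 9 genes (all but Clcf1), and the 250 bases before each start were searched on both strands for AP-1 (TGANTCA), the cyclic AMP response element (TGACGTCA), STAT (TTCNNNGAA) and kappaB. No match overlapped another. AP-1 matches stood 249, 228 and 98 bases before the start of Il6, Lif and Il11, counted from the match's first base, and 6.75% of the 32851 RefSeq windows of this length held one. The STAT match of Socs3 began 154 bases before its start (7.02% of windows held one), and the kappaB match of Il6 began 44 bases before its start (3.9% of windows). These letters were not found in the windows of Il6st, Il6ra, Osmr and Lifr, nor in the window of a second, upstream start of Il11. The search kept exon bases. All 250 bases of the Osmr window lie in an Osmr exon, and all 250 of Il6ra in an exon of Gm42809. In the second Il11 window an exon covers 157 bases. The windows of Osmr and Lifr also lie downstream of the annotated 5′ end of the gene. Other upstream bases of these genes were not searched. Il6, whose level did not pass the test, and Lif and Il11, which rose, thus all held the AP-1 letters, and a match describes the sequence only.

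Interleukin-11 is a stromal cytokine known for its part in fibrosis. Il11 (ENSMUSG00000004371, chromosome 7 from 4772373 to 4782859, mm10) had control values of 0.763, 1.02 and 1.09 FPKM and siEzh2 values of 1.73, 2.63 and 3.04 FPKM. Every siEzh2 sample lay above every control sample, with sample 1 the lowest of the 3. The mean was 2.57 times the control mean, at 2.46 ± 0.667 against 0.958 ± 0.172 FPKM (SD, n = 3 each). On the log2(FPKM + 1) scale the difference was 0.81 (SE 0.150, adjusted p = 0.00611, limma), which understates a change at this low level, and it was 1.26 with a pseudocount of 0.1 and 1.34 with limma-voom on recovered reads. Behind these values were 111 control and 264 siEzh2 reads. Among all tested genes 191 had a larger rise on this scale.

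Leukemia inhibitory factor, known for holding embryonic stem cells undifferentiated, was also higher. Lif (ENSMUSG00000034394, chromosome 11 from 4257557 to 4272514) had control values of 2.43, 2.47 and 2.03 FPKM and siEzh2 values of 3.60, 3.53 and 3.30 FPKM. The groups were apart, and the lowest siEzh2 sample was above the highest control. Its mean was 1.51 times the control mean, at 3.48 ± 0.157 against 2.31 ± 0.244 FPKM (SD, n = 3 each, log2 difference 0.44, SE 0.0629, adjusted p = 0.00230, limma). Osm, the gene of oncostatin M, lies 16.5 kb from Lif with no annotated gene between them. Osm had 0.0241 FPKM in control sample 1 and was listed at 0 in the other 5 samples.

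Il6 itself, the gene of the founding ligand, did not pass the test. Il6 (ENSMUSG00000025746, chromosome 5 from 30013114 to 30019981) had control values of 3.36, 3.14 and 2.77 FPKM and siEzh2 values of 3.51, 2.77 and 2.96 FPKM. The groups overlapped throughout, with the highest and the lowest value both among the siEzh2 samples. The log2 difference was −0.01 with a 95% interval from −0.21 to 0.20 (adjusted p = 0.959, limma), and the means rest on 417 control and 380 siEzh2 reads. Whether the difference of Il11 or Lif exceeds that of Il6 was not tested.

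Clcf1 encodes a cytokine that signals through gp130 and the chain encoded by Lifr. Clcf1 (ENSMUSG00000040663, chromosome 19 from 4214238 to 4223490) was below the filter, with control values of 0.158, 0 and 0.0708 FPKM and siEzh2 values of 0.180, 0.254 and 0.272 FPKM. The siEzh2 samples were the higher ones, on 16 control and 46 siEzh2 reads. Control sample 1 and siEzh2 sample 1 held 11 reads each, so they differ only by the scaling to depth. With no filter on low values its log2 difference was 0.20 (adjusted p = 0.0915, limma), and 8.17% of its exon bases are shared with another gene on its strand. Of the other ligand genes fixed for comparison, Cntf, Ctf1 and Il27 did not exceed 0.161, 0.598 and 0.261 FPKM in any sample. They were not tested. Of the exon bases of Cntf, 78.9% are shared with another gene on its strand, so its level is uncertain. Ctf2 and Ebi3 were not found under these symbols among the genes listed and so were not analysed.

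Il6st, which encodes the shared chain gp130, was the most abundant of the 9 genes and fell. Il6st (ENSMUSG00000021756, chromosome 13 from 112464070 to 112510086) had control values of 95.3, 96.1 and 94.6 FPKM and siEzh2 values of 82.8, 81.6 and 81.9 FPKM. The gap between the groups was far wider than the spread within either. The mean was 1.16 times lower, at 82.1 ± 0.610 against 95.3 ± 0.745 FPKM (SD, n = 3 each, log2 difference −0.21, SE 0.0307, adjusted p = 0.00232, limma). Among all tested genes 2169 had a larger fall.

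Osmr, which encodes the oncostatin M receptor chain, fell as well. Osmr (ENSMUSG00000022146, chromosome 15 from 6813577 to 6874969) had control values of 18.2, 19.7 and 18.4 FPKM and siEzh2 values of 14.9, 15.4 and 15.5 FPKM. All 3 siEzh2 samples lay under all controls. The mean was 1.23 times lower, at 15.2 ± 0.313 against 18.8 ± 0.798 FPKM (SD, n = 3 each, log2 difference −0.28, SE 0.0420, adjusted p = 0.00255, limma).

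Lifr, which encodes the chain for leukemia inhibitory factor, lies 216 kb from Osmr on chromosome 15 with no protein-coding gene between them. Lifr (ENSMUSG00000054263, from 7090614 to 7197489) had control values of 4.37, 4.28 and 4.14 FPKM and siEzh2 values of 3.91, 4.18 and 3.50 FPKM. The groups overlapped through siEzh2 sample 2. The log2 difference was −0.12 with a 95% interval from −0.26 to 0.02 (adjusted p = 0.144, limma). With limma-voom on recovered reads Lifr passed, at −0.15 (adjusted p = 0.0427). The interval of Lifr thus includes both no difference and one nearly as large as that of Osmr.

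Il6ra, which encodes the chain specific to interleukin-6, did not pass the test. Il6ra (ENSMUSG00000027947, chromosome 3 from 89864059 to 89913196) had control values of 3.79, 3.35 and 3.81 FPKM and siEzh2 values of 3.57, 3.90 and 3.78 FPKM, which overlapped. The log2 difference was 0.03 with a 95% interval from −0.10 to 0.16 (adjusted p = 0.672, limma), and 2.80% of its exon bases are shared with an antisense gene.

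Among the receptor chains outside the 9 genes, Il11ra1 fell while the gene of its ligand rose. Il11ra1, which encodes the chain specific to interleukin-11, had control values of 21.0, 21.6 and 22.2 FPKM and siEzh2 values of 13.6, 13.5 and 13.2 FPKM. All siEzh2 values were under all control values, and the mean was 1.60 times lower (log2 difference −0.64, SE 0.0362, adjusted p = 9.36e-05, limma). The level of Il11ra1 was 20.5 to 27.5 times that of Il11 in the control samples and 4.36 to 7.87 times in the siEzh2 samples. Cntfr, Il27ra and Il31ra, which encode the chains for ciliary neurotrophic factor, interleukin-27 and interleukin-31, did not exceed 0.268, 0.971 and 0.475 FPKM in any sample and were not tested. With no filter on low values Il31ra had a log2 difference of −0.25 (adjusted p = 0.00522, limma), on 148 control and 69 siEzh2 reads.

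**Figure D2:**
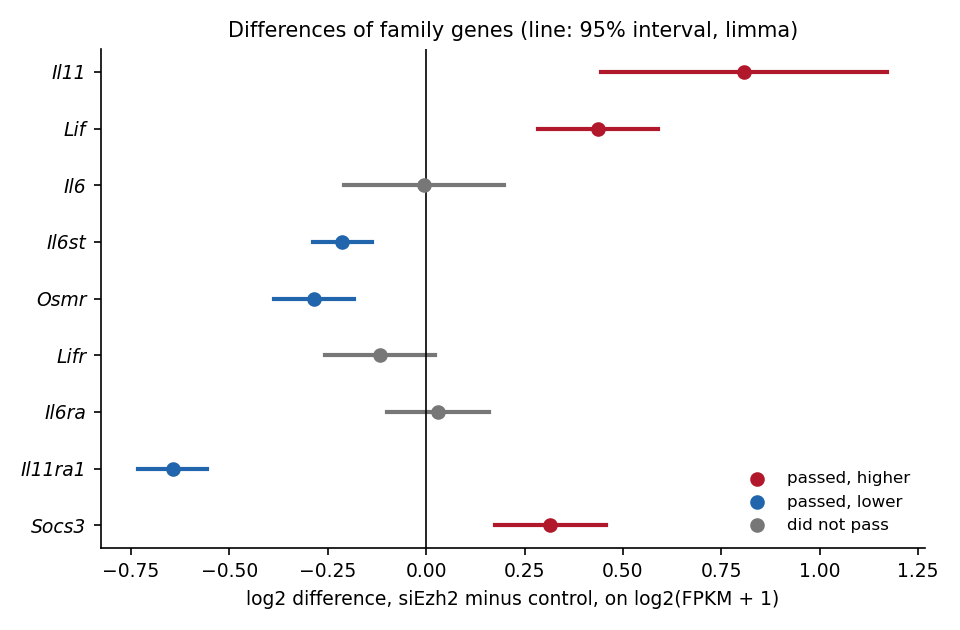
Log2 difference between siEzh2 and control samples on log2(FPKM + 1) for the 8 tested family genes and for Il11ra1, with the 95% interval from limma. Intervals of Il11, Lif and Socs3 lie above 0, those of Il6st, Osmr and Il11ra1 below 0, and those of Il6, Lifr and Il6ra include it.

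Socs3, the feedback inhibitor of gp130 signalling, rose. Socs3 (ENSMUSG00000053113, chromosome 11 from 117966079 to 117970047) had control values of 8.46, 8.79 and 8.25 FPKM and siEzh2 values of 11.8, 10.3 and 10.4 FPKM. All 3 siEzh2 samples were above the controls, sample 1 the most. The mean was 1.28 times higher, at 10.8 ± 0.833 against 8.50 ± 0.270 FPKM (SD, n = 3 each, log2 difference 0.32, SE 0.0580, adjusted p = 0.00586, limma). SiEzh2 sample 1, where Gm23935 was highest, held the lowest siEzh2 value of Il11 and the highest of Socs3. Without it the differences were 0.97 for Il11 (adjusted p = 0.00185) and 0.26 for Socs3 (adjusted p = 0.00805, limma).

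Ranked by control level per length, the genes stood in the order Il6st, Osmr, Socs3, Lifr, Il6ra, Il6, Lif, Il11 and Clcf1. Of these neighbours the values of Il6ra and Il6 overlapped between samples, and all others were apart. In the siEzh2 samples Lif stood ahead of Il6, and the values of neighbours overlapped from Lifr through Il6ra, Lif and Il6 to Il11, so their order there is not resolved. The level of Il6st was 4.88 to 5.23 times that of Osmr in the control and 5.30 to 5.56 times in the siEzh2 samples. It was 24.8 to 28.7 times that of Il6ra in the control samples and 20.9 to 23.2 times in the siEzh2 samples. The shared chain thus stayed the most abundant receptor transcript of the family in every sample.

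Other cell types that make or sense these cytokines were looked for by their markers. Of 7 macrophage and leukocyte markers 4 were tested, Lyz2 and Csf1r were lower, Cd68 and Cd14 higher, and their summed level was 17.2 to 20.5 FPKM in control and 14.1 to 15.2 FPKM in siEzh2 samples. Ptprc and Itgam of this list did not exceed 0.00897 and 0.0340 FPKM in any sample. Of the exon bases of Itgam, 68.7% are shared with another gene on its strand, so its level is uncertain. Of 5 endothelial markers only Kdr was tested and it was higher, with summed levels of all 5 of 2.17 to 2.42 FPKM in control and 3.48 to 3.84 FPKM in siEzh2 samples, and the other 4 were below the filter. Pecam1 and Cdh5, which define endothelium, did not exceed 0.233 and 0.333 FPKM. Tek and Vwf, an endothelial receptor and a clotting factor, had means of 0.332 and 0.417 FPKM in control and 0.857 and 0.932 FPKM in siEzh2 samples. With no filter on low values the log2 differences of Tek and Vwf were 0.48 and 0.45 (adjusted p = 0.00453 and 0.00364, limma). Those of Pecam1 and Cdh5 in the same fit were −0.12 and −0.03 (adjusted p = 0.159 and 0.809, limma). Markers of endothelium thus did not all go the same way. Of 5 fibroblast markers 4 were tested, 1 higher and 2 lower, with sums of 509 to 547 and 391 to 433 FPKM. Col1a1 made up most of these sums, at 463 to 501 and 335 to 381 FPKM. Col1a1 and Lum were lower, Pdgfra was higher and Dcn did not pass. Of 4 adipocyte markers 3 were tested and all 3 were lower, with sums of 29.4 to 30.2 and 20.5 to 22.0 FPKM. The part of these cell types in the differences of the family was not tested, and in bulk RNA fewer cells of a type and less RNA per cell cannot be told apart.

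Kinases and STAT factors carry the signal from gp130. Of 6 tested genes, Stat5b was higher, Jak1 was lower and 4 did not pass, with a median log2 difference of 0.02. The share that passed was 33.3%, beside 46.9% of all tested genes. Stat3, the main factor downstream of gp130, was at 29.0 ± 0.422 FPKM against 30.6 ± 0.196 FPKM in control (SD, n = 3 each) and did not pass (log2 difference −0.08, adjusted p = 0.0905, limma). Of 13 alternatives only limma-voom on recovered reads let it pass (adjusted p = 0.0183). Stat5b rose by 0.34 (adjusted p = 0.00155, limma). Jak1 (log2 difference −0.13) lost its call with the replicate block and without control sample 1, 2 or 3 or siEzh2 sample 3 (adjusted p = 0.0522 to 0.0666, limma).

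Other feedback genes moved in both directions. Of 15 feedback and phosphatase genes 13 were tested, 5 were higher, 2 lower and 6 did not pass, with a median log2 difference of 0.13. The share that passed was 53.8%, close to the 46.9% of all tested genes, so that count says nothing particular about these genes. Socs5 had control values of 21.1, 20.2 and 19.5 FPKM and siEzh2 values of 31.4, 31.6 and 31.9 FPKM. It was the largest rise of this list, 1.56 times (log2 difference 0.62, adjusted p = 0.000127, limma). Socs6 and Socs7, further members of the same protein family, rose by 0.38 and 0.31 on the log2 scale. Socs2, which acts on growth hormone signalling, fell by 0.40 on the log2 scale (adjusted p = 0.00336, limma). Socs1, which inhibits JAK kinases directly, had a log2 difference of 0.22 (adjusted p = 0.0314, limma) and lost the call under 10 of 12 alternatives, leaving out any 1 sample other than siEzh2 sample 3 among them (adjusted p = 0.0512 to 0.0928, limma). The phosphatase gene Ptpn1 had a log2 difference of 0.26 and lost its call with no filter (adjusted p = 0.0623) and when control sample 1 or 2, or either of siEzh2 samples 2 and 3, was left out (0.0706 to 0.0756, limma). Pias1, an inhibitor of STAT factors, had a log2 difference of −0.12 and lost its call under 7 of 13 alternatives, leaving out any 1 sample other than control sample 2 among them (adjusted p = 0.0547 to 0.109, limma). Ptpn11, which encodes the phosphatase recruited to gp130, had a log2 difference of −0.08 (adjusted p = 0.120, limma) and passed with limma-voom on recovered reads alone (0.0191).

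Of the proteases that shed interleukin-6 receptors, Adam10 rose by 0.16 on the log2 scale (adjusted p = 0.00929, limma) and Adam17 did not pass (0.12, adjusted p = 0.0705, limma). Adam17 passed without siEzh2 sample 2 (0.0442), with a filter of 5 FPKM (0.0413) and with limma-voom on recovered reads (0.0137). Among regulators of cytokine mRNA decay 5 of 6 were tested, 2 were higher and 2 lower (80.0% passed, beside 46.9% of all tested genes). Zc3h12a, which encodes the endonuclease that degrades Il6 mRNA, was at 5.56 ± 0.240 FPKM against 5.41 ± 0.192 FPKM in control (SD, n = 3 each, log2 difference 0.03, adjusted p = 0.556, limma). Zfp36, which encodes a protein that binds AU-rich elements and speeds decay, fell by 0.19 on the log2 scale. Its paralog Zfp36l1 rose by 0.67 (adjusted p = 0.000198, limma), and an antisense gene covers 55.9% of its exon bases. Rc3h2 fell by 0.21 on the log2 scale, a call lost without control sample 1 (adjusted p = 0.0550, limma). Its paralog Rc3h1 had a log2 difference of 0.14 and lost its call under 9 of 13 alternatives, leaving out any 1 sample other than control sample 1 among them (adjusted p = 0.0528 to 0.132, limma). The sources used here do not say whether reads were counted by strand, so levels of genes with antisense partners are uncertain.

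Genes known to respond to STAT3 went both ways. Of 18 listed genes 17 were tested, 9 were higher, 6 lower and 2 did not pass. The share that passed was 88.2%, beside 46.9% of all tested genes, and the gap between the shares was not tested. The list was written with earlier results of these data known. Its median log2 difference was 0.13, beside 0.01 over all tested genes. Myc, a growth regulator, had control values of 17.5, 17.1 and 17.4 FPKM and siEzh2 values of 34.5, 33.7 and 34.8 FPKM, 1.98 times higher (adjusted p = 3.57e-05, limma). Junb, which encodes a subunit of AP-1, had control values of 49.8, 48.4 and 46.9 FPKM and siEzh2 values of 87.6, 86.1 and 86.4 FPKM, 1.79 times higher, and an antisense gene covers 7.52% of its exon bases. Pim1, a survival kinase, and Bcl3, a partner of NF-kappaB, rose by 0.50 and 0.44 on the log2 scale. Icam1, an adhesion molecule, rose by 0.58, and 14.5% of the exon bases of Pim1, 6.51% of Bcl3 and 11.7% of Icam1 lie in antisense genes.

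Of the 6 lower genes of this list, Mcl1 and Bcl2l1, which encode inhibitors of apoptosis, fell by 0.26 and 0.24 on the log2 scale. Hp, which encodes the acute phase protein haptoglobin, fell to 41.1 ± 1.68 FPKM against 49.6 ± 0.0170 FPKM in control (SD, n = 3 each, adjusted p = 0.00271, limma). Cebpd fell by 0.18 on the log2 scale, where 15.0% of exon bases overlap an antisense gene, and Cebpb, its paralog, had a log2 difference of 0.00. Pim3, the gene of a kinase related to Pim1, had a log2 difference of −0.23 and lost its call when control sample 1 or 3, or either of siEzh2 samples 1 and 2, was left out (adjusted p = 0.0517 to 0.0661, limma). Ccnd1, which encodes cyclin D1, had a log2 difference of −0.18 and lost its call with quantile normalization (−0.12, adjusted p = 0.0749, limma), and an antisense gene covers 23.4% of its exon bases. Timp1, among the 9 counted as higher, had a log2 difference of 0.12 that turned to −0.01 with quantile normalization (adjusted p = 0.787, limma). Its call was also lost with no filter, with the replicate block and without any 1 sample other than siEzh2 sample 1 (0.0542 to 0.119). Il4ra was also counted as higher (log2 difference 0.13) and lost its call with the replicate block (adjusted p = 0.0688) and when control sample 2 or 3, or either of siEzh2 samples 2 and 3, was left out (0.0534 to 0.0803, limma).

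**Figure D3:**
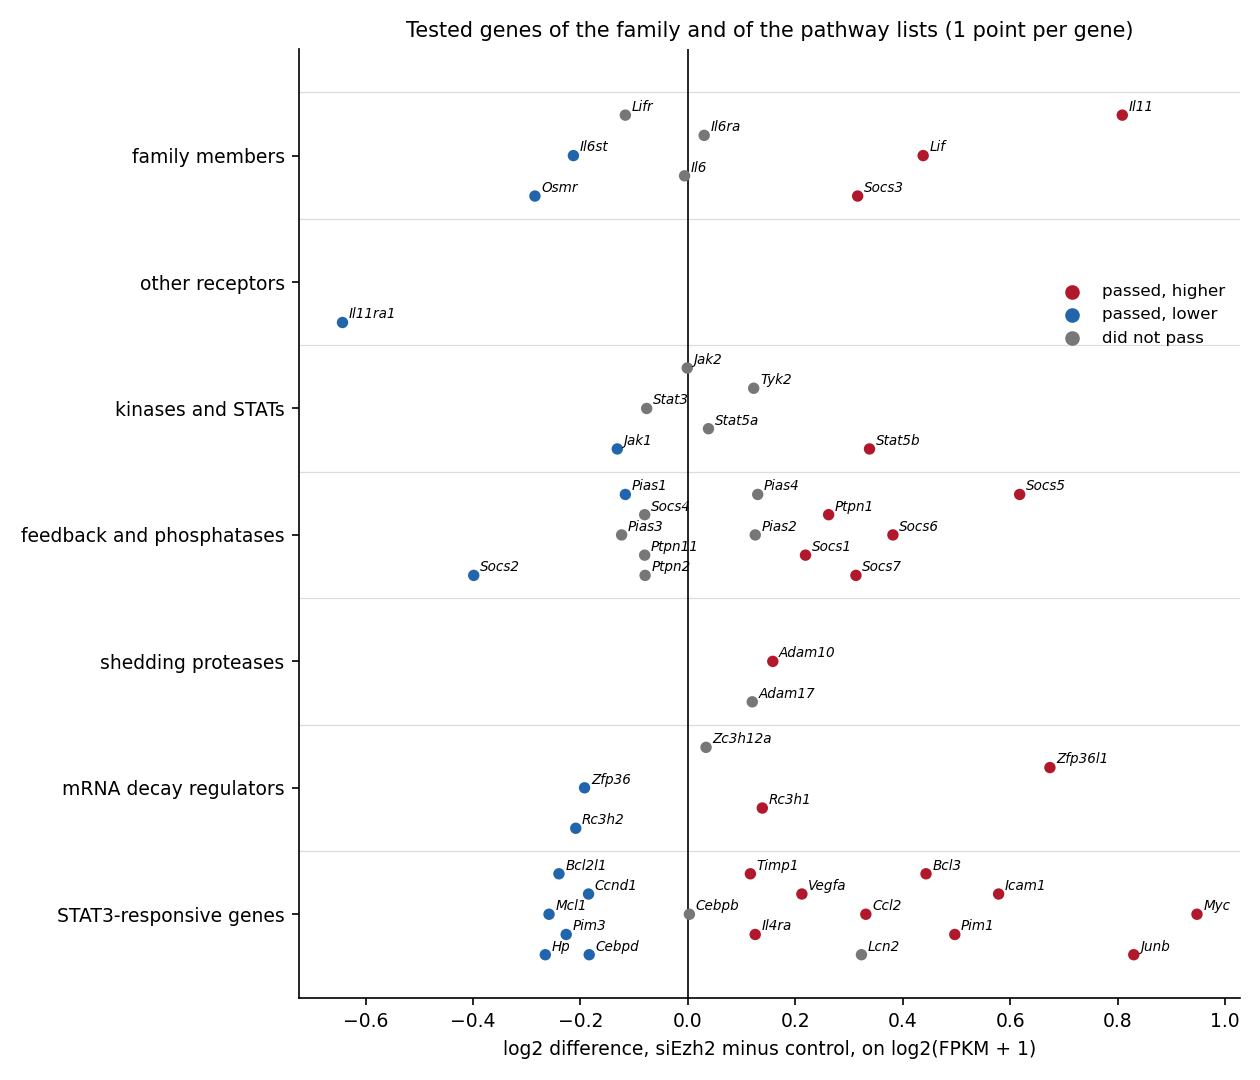
Log2 difference between siEzh2 and control samples on log2(FPKM + 1) for each tested gene of the family and of the 6 pathway lists that held one, coloured by the limma call (vertical position within a list has no meaning). Points of the family and of the STAT3-responsive list lie on both sides of 0, from −0.28 to 0.81 and from −0.27 to 0.95.

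Across all 7 pathway lists 44 of 57 genes were tested, 18 were higher and 12 lower (68.2% passed, beside 46.9% of all tested genes), and the lists were written with earlier results of these data known. The genes whose levels followed Il11 most closely over the 6 samples, among 6469 genes that reached 5 FPKM on average (predicted genes and pseudogenes left out, log2(FPKM + 1) scale), were Palm (Pearson's r 0.998), Dido1 (0.998), Mfsd1 (0.996), Mrpl28 (0.994) and Dcaf15 (0.992). The difference between the groups is part of these values, and the next gene had an r of 0.992, so the choice of 5 has no natural limit. Palm had control values of 16.4, 16.7 and 16.9 FPKM and siEzh2 values of 17.6, 18.6 and 18.9 FPKM, a log2 difference of 0.13 beside 0.81 for Il11.

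Calls of the 5 family genes that passed held under each alternative in which the gene was tested. The log2 difference of Il11 ranged from 0.69 to 1.34 and that of Lif from 0.38 to 0.59. Socs3 ranged from 0.26 to 0.35, Il6st from −0.22 to −0.21 and Osmr from −0.31 to −0.25. Adjusted p reached at most 0.0242 for Il11 (without siEzh2 sample 2), and 0.0109, 0.0237, 0.0152 and 0.0106 for Lif, Socs3, Il6st and Osmr (limma).

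**Figure D4:**
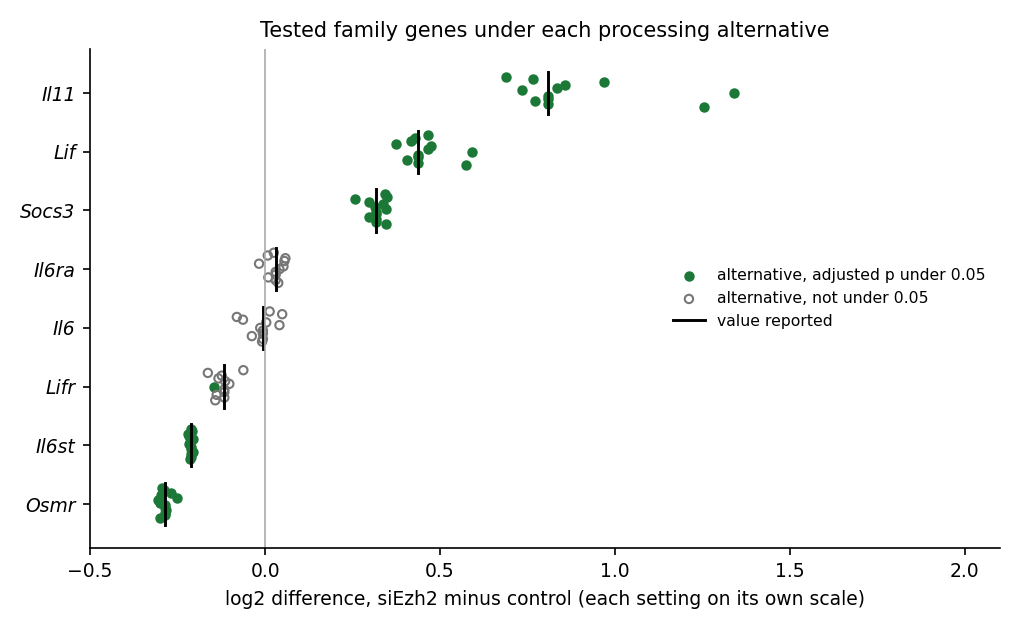
Log2 difference between siEzh2 and control samples for the 8 tested family genes under each processing alternative (points, filled where the adjusted p was under 0.05) and as reported (black bars). Filled points of Il11, Lif and Socs3 stay right of 0 and those of Il6st and Osmr left of 0, and Lifr has 1 filled point.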

How the data were processed

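RNA was measured in 6 samples, 3 per group, from stranded mRNA libraries per the labels' protocols. The authors deposited 1 table per sample, and per the file headers its values are FPKM. Named in the submitters' processing notes, without versions or roles, are the build mm10 and the tools HISAT2, Cufflinks, HTSeq and Trimmomatic. Gene models came from GENCODE M21 on the same build, which held 27434 of 27502 gene identifiers. FPKM times exon length moved in equal steps, and 98.4% to 98.5% of values under 1000 reads were within 0.02 of a whole read. Their sums gave the depth of each sample, and 3 reads are the limit that a count of 0 allows, for counting error only.

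The test was limma 3.58.1 (R 4.3.3) on log2(FPKM + 1), without covariates, for genes whose mean reached 1 FPKM in either group. Adjustment was by Benjamini and Hochberg over all 11869 tested genes, with a threshold of 0.05 on the adjusted p. Fold ratios and SD are of FPKM. The test was tried on simulated data. Python 3.11.15 with pandas 2.3.3 and numpy 2.4.6 did the rest. Upstream sequences came from RefSeq (GRCm38.p6).

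All 9 members, Ezh2, the 7 pathway lists and the cell type markers could be named, and the 5 genes most like the member with the largest difference. The lists leave out 2 genes that are not reported here. Members and lists were chosen with earlier results of these data known, and the motifs and the ratios between genes were chosen after the values were seen. Alternatives were another pseudocount (0.1), no filter, a filter of 5 FPKM, quantile normalization, limma with trend and robust on, the replicate number as a block, limma-voom on recovered reads and leaving out each sample. No sample was left out of the main results.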

Additional observations from a re-analysis of the deposited data

How the results depend on the processing

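With a filter of 5 FPKM only Il6st, Osmr and Socs3 of the family were tested, so the number of members higher was 1 in place of 3. Leaving out 1 sample gave 2309 to 2516 higher and 2156 to 2345 lower genes among all genes tested, in place of 2866 and 2695, and the family kept 3 higher and 2 lower genes each time. Timp1 changed direction with quantile normalization (log2 difference −0.0137); the cause was not tested. Over 53 named genes and 13 alternatives, 605 of 677 values kept their side of the threshold, 54 lost the call, 17 gained it and 1 reversed. A change of sign was counted as reversed only where the main or the alternative value passed. Differences that passed in neither could change sign and still be among the 605. Il6 did so (0.04 without control sample 1), as did Il6ra (−0.02 without control sample 2). With the replicate number as a block 2564 genes were higher and 2385 lower, and the family again had 3 higher and 2 lower. Samples with the same number had correlated deviations from their group means of 0.0243, 0.0695 and 0.0405, too low to treat them as pairs, although each sample correlated best with its own number. Low read numbers limit Il11 and Clcf1 the most, with 29 and 0 reads in their lowest samples. The median over all tested genes moved by no more than 0.02 under any scaling.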
